A study of Mus musculus with 12 samples.

Results

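H3K4me3, a histone mark of active promoters, was examined at 58 genes that drive or restrain the cell cycle, in cardiomyocytes (CMs) of adult mice. The mice had or lacked, in their CMs, Cpt1b, a gene for the import of long-chain fatty acids into mitochondria. The genes were taken from a list of named regulators of the cell cycle and mitosis, and every peak that the deposited table assigned to one of them was kept, whatever its values. This gave 54 of the 15848 peaks on mm10, which carried 52 of the 58 genes, and all 54 passed the filter of a mean normalized count of at least 10 that left 15039 peaks for testing. The normalized count is the number of counts in a peak divided by a size factor of its library.

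Progression through the cell cycle is driven by cyclins that bind and activate cyclin-dependent kinases (CDKs). D-type and E-type cyclins act in G1 by inactivating the retinoblastoma family of pocket proteins, which frees E2F factors to switch on genes of DNA replication, whereas A-type and B-type cyclins with CDK1 drive mitosis, and the genes of mitosis are held off in resting cells by the DREAM complex and switched on by MYB–MuvB and FOXM1. CMs leave the cell cycle shortly after birth, when CDK inhibitors accumulate and the genes of mitosis fall silent, and the adult heart replaces few of them. Whether the loss of fatty acid oxidation changes the chromatin of these genes in adult CMs is the question that the comparison addresses.

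H3K4me3 chromatin immunoprecipitation and sequencing was performed on CM nuclei of CtrlCre and Cpt1bcKO mice, with 3 libraries per genotype. Cpt1bcKO mice were αMHC-Cre pos/+;Cpt1b fl/fl and CtrlCre mice were αMHC-Cre pos/+;Cpt1b +/+, so both genotypes carried the Cre transgene, and they differed in the floxed Cpt1b allele, which encodes the muscle carnitine palmitoyltransferase of the outer mitochondrial membrane. The αMHC promoter drives Cre in CMs already before birth and the deletion was not timed to adulthood, so that direct and secondary differences cannot be told apart. Nuclei were sorted by flow cytometry for the CM marker PCM1, and the age of the mice beyond adult was not given in the sources used here. An input library exists for each of the 6 nuclei preparations and was not part of the table analysed here. The labels do not say whether each library came from a separate mouse, so that p-values measure the spread between these libraries only.

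Total counts in peaks ranged from 763133 in CtrlCre replicate 2 to 2766416 in Cpt1bcKO replicate 2. The counts were taken per peak from a signal track with bigWigAverageOverBed, and only if each count were 1 read would the counting error of a median peak be 8.36% to 15.6%. All 10 CM markers listed had peaks, with summed normalized counts of 8586 to 10279 in CtrlCre and 6642 to 9353 in Cpt1bcKO, the lowest in Cpt1bcKO replicate 3. Of 26 markers of endothelial cells, fibroblasts, immune cells, smooth muscle, pericytes and epicardium, 4 had a peak, namely Kdr, Pdgfra, Kcnj8 and Myh11. Their sums were 144 to 207 in CtrlCre and 125 to 174 in Cpt1bcKO. No peak was found under the names of Pecam1, Cdh5, Col1a1, Dcn, Ptprc or Wt1. The peak of the targeted gene Cpt1b (chromosome 15, 89421995 to 89431151), which does not reach the floxed exons 10 and 11 and so does not test the deletion, and which also overlaps Chkb, held 428, 407 and 436 normalized counts in CtrlCre and 572, 689 and 568 in Cpt1bcKO (log2 difference 0.52, SE 0.10, limma adjusted p = 0.00357).

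Promoters of members that the comparison turns on are shown here, because genes of mitosis are known to share short promoter elements through which DREAM and MYB–MuvB act. Each line gives the 120 bases before a transcription start from RefSeq (GRCm38.p6, the same coordinates as mm10), 5′ to 3′ on the strand of the gene. Capitals mark letters that match a cell cycle homology region (CHR, with the letters TTTGAA), the box named CCAAT or an E2F site (TTTCCCGC, TTTCGCGC, TTTGCCGC or TTTGGCGC) on either strand. Each motif was searched for on its own, so that matches may overlap.
Kif11 (chr19:37376262-37376381, plus strand): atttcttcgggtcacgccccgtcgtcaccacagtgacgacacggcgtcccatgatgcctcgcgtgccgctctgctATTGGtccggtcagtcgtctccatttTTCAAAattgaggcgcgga
Cdk1 (chr10:69352913-69353032, minus strand): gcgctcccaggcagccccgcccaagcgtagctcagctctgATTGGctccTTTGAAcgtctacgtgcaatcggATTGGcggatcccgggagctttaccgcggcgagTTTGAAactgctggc
Bub1b (chr2:118598091-118598210, plus strand): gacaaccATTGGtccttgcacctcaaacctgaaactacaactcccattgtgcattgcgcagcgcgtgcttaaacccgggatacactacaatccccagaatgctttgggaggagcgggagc
E2f3 (chr13:29986064-29986183, minus strand): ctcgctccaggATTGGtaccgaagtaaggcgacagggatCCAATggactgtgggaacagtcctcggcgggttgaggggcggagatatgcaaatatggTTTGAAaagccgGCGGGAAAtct
Cdkn1a (chr17:29093649-29093768, plus strand): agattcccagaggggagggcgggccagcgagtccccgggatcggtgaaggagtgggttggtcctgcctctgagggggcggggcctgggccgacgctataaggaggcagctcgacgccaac
Ccnb1 (chr13:100786487-100786606, minus strand): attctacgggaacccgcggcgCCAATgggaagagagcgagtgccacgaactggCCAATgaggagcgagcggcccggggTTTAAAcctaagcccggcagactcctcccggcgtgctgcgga
Plk1 (chr7:122159315-122159434, plus strand): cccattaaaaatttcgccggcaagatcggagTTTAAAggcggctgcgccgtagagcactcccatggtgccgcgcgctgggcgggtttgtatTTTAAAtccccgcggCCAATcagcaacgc
Mki67 (chr7:135716380-135716499, minus strand): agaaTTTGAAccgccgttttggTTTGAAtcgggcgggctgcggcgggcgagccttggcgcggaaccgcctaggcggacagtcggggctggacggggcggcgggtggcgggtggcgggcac

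Kif11, Cdk1, Bub1b and E2f3 are shown because their H3K4me3 was higher in every Cpt1bcKO library than in every CtrlCre library, as was that of Cdkn1a, whose stretch held none of these letters and lies before a downstream alternative start. The libraries of Cdt1 separated likewise, and its stretch, which also held none of these letters, is not printed. Ccnb1, Plk1 and Mki67 are classical mitotic genes whose libraries overlapped between genotypes. In Ccnb1 and Plk1 the capitals include the variant form of the CHR, TTTAAA, which was searched and counted with it. The stretches of Kif11, Cdk1, E2f3, Ccnb1, Plk1 and Mki67 held CHR letters, so that such matches occurred both in genes whose libraries separated by genotype and in genes whose libraries did not. In windows of 300 bases, from 250 before to 50 after the start, CHR letters occurred in 17 of 20 promoters of the mitotic, spindle, checkpoint and cytokinesis members (85.0%), and CCAAT letters likewise in 17 of 20. Among the 33 promoters of the other members, 9 held CHR letters, 18 CCAAT letters (54.5%) and 10 E2F letters. Of the 20 mitotic promoters, which belong to 19 genes because Ect2 is entered more than once, 1 held E2F letters. Of all 32851 promoters in the RefSeq table, 27.6% held CHR letters, 37.4% CCAAT and 2.26% an E2F site, and among the 13297 that overlap a peak these shares were 17.7%, 37.0% and 4.30%. The table held 53 promoters of 45 members. The 13 members without an entry were Ccnd1, Aurkb, Ccna2, Ccnd2, Ccne2, Cdc25c, E2f4, Foxm1, Gmnn, Lin9, Mcm4, Rb1 and Wee1. These counts describe letters and no binding.

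The level of H3K4me3 in control CMs differed by the role of the genes. Widths are those of peaks merged over the libraries of both genotypes, not of control peaks alone. The widest and strongest peak belonged to Meis1, a homeobox factor that promotes cell cycle arrest of postnatal CMs, with a width of 14044 bases and a CtrlCre mean of 819 ± 95.4 (SD, n = 3). The 7 peaks of CDK inhibitors and genes of cell cycle exit had a median width of 3462 bases and a median CtrlCre level of 263 normalized counts, and 5 of them were broad, that is, wider than 2222 bases, a width exceeded by 3757 of the 15039 tested peaks. Among the 9 peaks of G1 cyclins and kinases, 4 were broad, those of Ccnd1, Ccnd2, Cdk2 and Cdk6. The Cdk2 peak also holds a coding start of Pmel, so its width cannot be credited to Cdk2 alone. The 13 peaks of spindle, checkpoint, chromosome and cytokinesis genes included no broad peak and 4 narrow ones, under 1030 bases, with a median level of 55.7. The 9 peaks of mitotic cyclins, kinases and phosphatases had a median level of 44.3 and included 4 narrow peaks, and its 1 broad peak lay 3851 bases from the nearest Aurkb start.

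**Figure D1:**
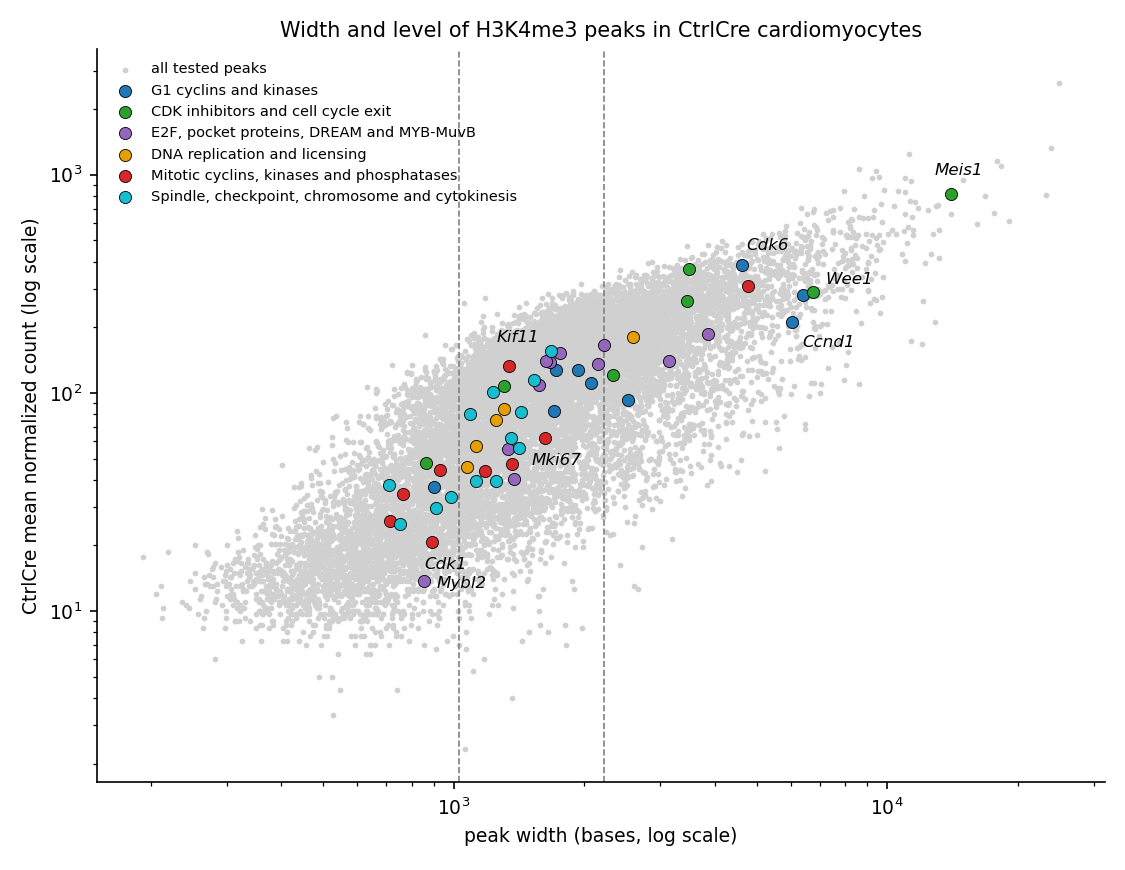
Width of the merged peak (bases, log scale) against the CtrlCre mean normalized count (log scale, n = 3 libraries), coloured by role. All 15039 tested peaks (grey) and the 54 cell cycle peaks are shown. Dashed lines mark 1030 and 2222 bases, the limits of narrow and broad peaks, and Meis1, Cdk6, Wee1 and Ccnd1 lie on the broad side while Cdk1 and Mybl2 lie low on the narrow side.

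Per kilobase of peak, which takes out the width, the groups lay closer together. Meis1 held 58.3 normalized counts per kilobase in CtrlCre, below the median of 60.4 over all tested peaks. The median CtrlCre level was 58.3 normalized counts per kilobase for the inhibitors and exit genes, 48.6 for G1 cyclins and kinases, 62.7 for E2F, pocket proteins and MuvB genes, 60.1 for replication genes, 46.1 for spindle and cytokinesis genes and 38.2 for mitotic cyclins and kinases, against 60.4 over all tested peaks. The lowest member was Mybl2, the B-MYB factor that activates mitotic genes with MuvB, with 10, 7 and 24 normalized counts in CtrlCre and 11, 12 and 26 in Cpt1bcKO. Cdk1 was next lowest, at 20.7 ± 1.53 in CtrlCre, and at such levels each value rests on few counts, since 1 count of CtrlCre replicate 2 was worth 2.325 normalized counts. Since the libraries come from many nuclei, a mark on fewer nuclei and less of the mark per nucleus cannot be told apart.

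Between genotypes, 2 of the 54 peaks passed an adjusted p of 0.05, both with more H3K4me3 in Cpt1bcKO, and 0 passed with less. They belong to Kif11, the mitotic kinesin that pushes the spindle poles apart, and to Ccnd1, cyclin D1, which opens G1 with CDK4 and CDK6. Higher and lower are relative to the other peaks, since size factors set the libraries to a like total. By western blot of sorted CM nuclei, the paper found less total H3K4me3 in Cpt1bcKO. In limma over all tested peaks, 1.11% were called higher and 1.82% lower, and among members 3.70% were higher. At an unadjusted p under 0.05, 7 member peaks were higher (13.0%, against 5.84% of all tested peaks) and 1 was lower (1.85%, against 6.98%). In 8 member peaks (14.8%) every Cpt1bcKO library lay above every CtrlCre library, against 7.80% of all tested peaks, and 0 showed the opposite separation, against 8.46%. The log2 difference was above 0 in 39 of 54 member peaks (72.2%) and in 51.2% of all tested peaks, with medians of 0.10 and 0.01, and in 54.7% of the tested peaks with an assigned gene, with a median of 0.02. Without Cpt1bcKO replicate 3, only 31 of the 54 (57.4%) were above 0, with a median of 0.04.

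**Figure D2:**
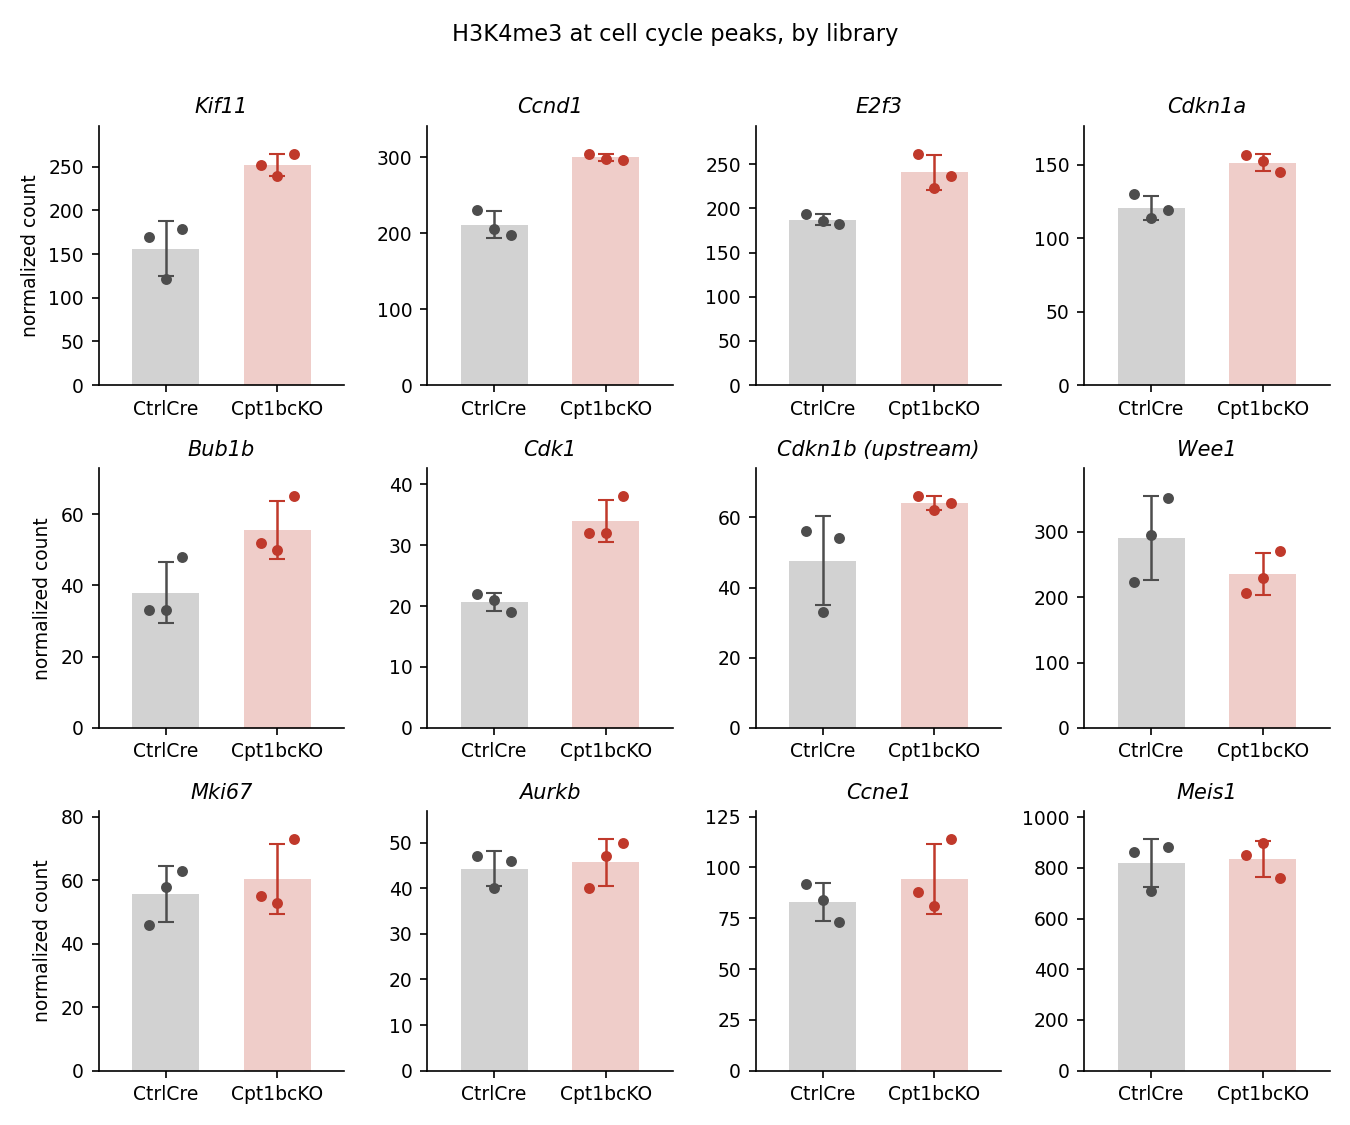
Normalized counts in the 3 CtrlCre (grey) and 3 Cpt1bcKO (red) libraries for 12 cell cycle peaks, with bars for means, error bars for SD and points for libraries in the order of replicates 1 to 3. Kif11, Ccnd1, E2f3, Cdkn1a, Bub1b, Cdk1 and the upstream Cdkn1b peak separate the genotypes, whereas Wee1, Mki67, Aurkb, Ccne1 and Meis1 overlap.

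The Kif11 peak (chromosome 19, 37375458 to 37377137) spans the start of the gene, with 15.8% of its bases in exons, 28.0% in introns and 56.2% outside the gene. It held 169, 121 and 179 normalized counts in CtrlCre and 252, 239 and 265 in Cpt1bcKO. The lowest knockout library lay above the highest control, and the means were 156 ± 31.0 and 252 ± 13.0 (SD, n = 3 each). The log2 difference was 0.70 with an SE of 0.12 (limma adjusted p = 0.00143), a ratio of means of 1.61. With any 1 library left out it lay between 0.53 and 0.81, with adjusted p-values of up to 0.0181.

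The Ccnd1 peak (chromosome 7, 144937697 to 144943718) extends over 6021 bases around the start, 63.0% of them outside the gene. It held 231, 205 and 198 normalized counts in CtrlCre and 305, 298 and 297 in Cpt1bcKO. The knockout libraries lay close together and above all controls. The log2 difference was 0.51 (SE 0.10, limma adjusted p = 0.00320), between 0.46 and 0.57 without any 1 library. Neither of the other D-type cyclins was called. Ccnd2 held 268, 295 and 279 normalized counts in CtrlCre and 270, 322 and 275 in Cpt1bcKO (log2 difference 0.04, 95% interval −0.17 to 0.24, adjusted p = 0.934). Ccnd3 had a narrow, weak peak at its upstream start with values that overlapped (log2 difference −0.35, SE 0.27, adjusted p = 0.671).

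No other G1 peak was called. Ccne1, cyclin E1, which starts S phase with CDK2, held 92, 84 and 73 normalized counts in CtrlCre and 88, 81 and 114 in Cpt1bcKO, with an overlap carried by Cpt1bcKO replicates 1 and 2 (log2 difference 0.17, 95% interval −0.15 to 0.50, adjusted p = 0.732). The CDK genes Cdk2, Cdk4 and Cdk6 gave log2 differences of −0.07, 0.02 and 0.01. For Cdk6, with a CtrlCre mean of 387 the strongest peak of the group, the 95% interval of −0.19 to 0.20 was among the narrowest. Cdc25a, the phosphatase that activates CDK2, gave 0.05 and Ccne2 −0.13, neither past an unadjusted p of 0.05.

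E2f3, an activator of genes of S phase, had a peak of 3861 bases over both of its starts (chromosome 13, 29983282 to 29987143). It held 194, 186 and 182 normalized counts in CtrlCre and 262, 223 and 237 in Cpt1bcKO. The genotypes did not overlap, yet the log2 difference of 0.36 (SE 0.10) missed the threshold (adjusted p = 0.0562). With only peaks of a mean of at least 50 tested, the adjusted p was 0.0460, and with any 1 library left out it lay between 0.0656 and 0.311. The other 10 peaks of the E2F, pocket protein and MuvB group overlapped between genotypes, with log2 differences from −0.01 at E2f4 and Rbl1 to 0.31 at the weak Mybl2 peak. Rb1, the retinoblastoma protein that holds E2F in check, had 130, 133 and 142 normalized counts in CtrlCre and 127, 137 and 150 in Cpt1bcKO (log2 difference 0.03, 95% interval −0.21 to 0.27, adjusted p = 0.964).

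**Figure D3:**
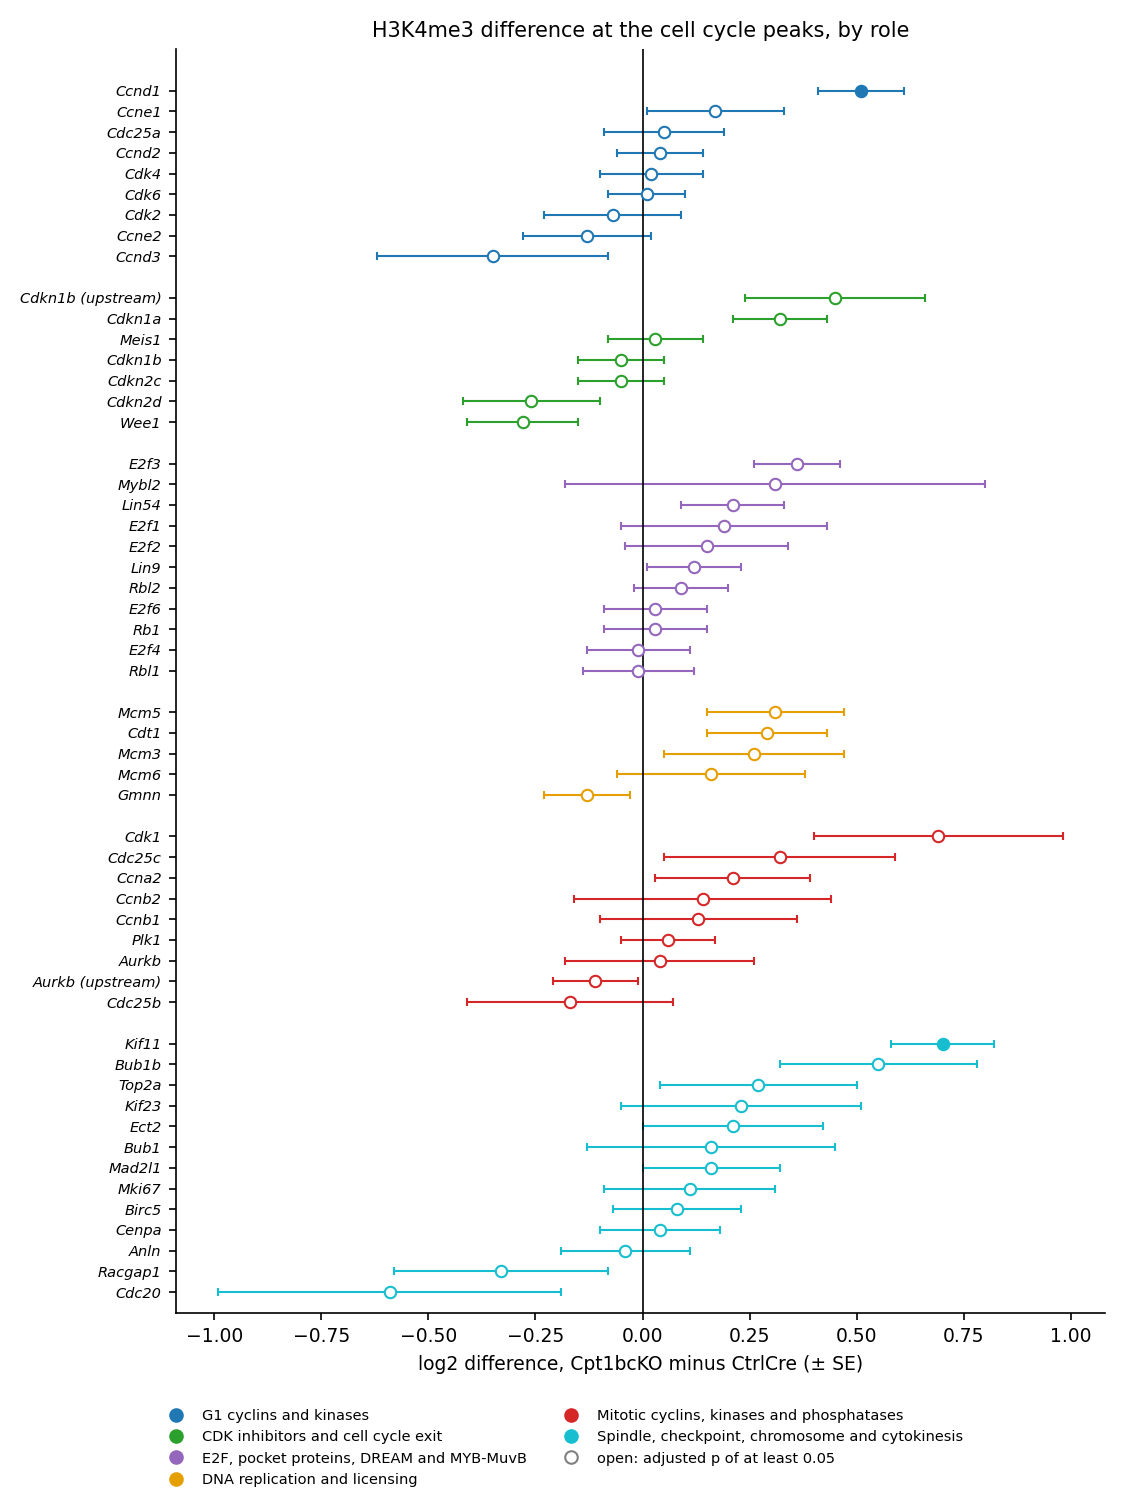
Log2 difference of H3K4me3 (Cpt1bcKO minus CtrlCre, ± SE from limma) at the 54 cell cycle peaks, grouped by role, with filled points for an adjusted p under 0.05. Kif11 (0.70) and Ccnd1 (0.51) are filled, and the 5 replication peaks include 4 above 0.

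Among the brakes of the cycle, no peak passed the adjusted threshold, and the log2 difference was above 0 in 3 of 7 peaks, with a median of −0.05. Cdkn1a, encoding the CDK inhibitor p21, had its peak (chromosome 17, 29093502 to 29095832) over a downstream alternative start, wholly within the annotated gene. It held 130, 114 and 119 normalized counts in CtrlCre and 157, 153 and 145 in Cpt1bcKO, without overlap (log2 difference 0.32, SE 0.11, adjusted p = 0.164). Cdkn1b, encoding p27, had 2 peaks. The narrow one, 2857 bases from the nearest annotated start (chromosome 6, 134916682 to 134917544), held 56, 33 and 54 normalized counts in CtrlCre and 66, 62 and 64 in Cpt1bcKO (log2 difference 0.45, SE 0.21, adjusted p = 0.370), and without CtrlCre replicate 2, the library of lowest depth, the difference was 0.21. Over the promoter itself (chromosome 6, 134919480 to 134922942) the values were 284, 274 and 232 against 260, 261 and 238, overlapping, with a log2 difference of −0.05 (95% interval −0.26 to 0.16, adjusted p = 0.898).

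Wee1, the kinase that keeps CDK1 inactive until mitosis, was the only member peak lower at an unadjusted p under 0.05. Its broad peak (chromosome 7, 110119796 to 110126549), which also overlaps 1600010M07Rik and Gm45819, held 224, 295 and 352 normalized counts in CtrlCre and 207, 230 and 270 in Cpt1bcKO. Control replicate 1 lay among the knockout libraries (log2 difference −0.28, SE 0.13, adjusted p = 0.357), and the estimate ran from −0.46 without CtrlCre replicate 1 to −0.13 without CtrlCre replicate 3. Meis1 (chromosome 11, 19007431 to 19021475) held 864, 709 and 883 normalized counts in CtrlCre and 852, 898 and 759 in Cpt1bcKO. These ranges coincided almost fully, and the 95% interval of its log2 difference ran from −0.20 to 0.27 (estimate 0.03, adjusted p = 0.956). The INK4 inhibitor genes Cdkn2c and Cdkn2d gave −0.05 and −0.26, neither called.

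Genes of DNA replication and licensing had a median log2 difference of 0.26 over the 5 peaks of their own name, with no called peak. With the peaks that Mcm2, Mcm4, Mcm7 and Pcna share with a neighbouring gene, 6 of 9 were above 0 and the median was 0.16. Cdt1, which loads the MCM helicase at origins and is named here after its values were seen, held 90, 77 and 85 normalized counts in CtrlCre and 96, 97 and 116 in Cpt1bcKO, without overlap (log2 difference 0.29, SE 0.14, adjusted p = 0.410). The helicase subunits Mcm5, Mcm3 and Mcm6 gave 0.31, 0.26 and 0.16, each with overlapping libraries, and geminin (Gmnn), the inhibitor of CDT1, gave −0.13. The group stayed at 4 of 5 above 0 with each library left out in turn, with medians from 0.15 to 0.30. Cpt1bcKO replicate 3 stood apart here, with a median log2 deviation from the mean of the 6 libraries of 0.23, against −0.12 to 0.05 in the other libraries.

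The 22 peaks of the mitotic groups, that is, mitotic cyclins and kinases together with spindle, checkpoint, chromosome and cytokinesis genes, included 17 above 0 (77.3%, against 51.2% of all tested peaks), with a median log2 difference of 0.13. Cdk1, the kinase of mitotic entry (chromosome 10, 69352051 to 69352944), held 22, 21 and 19 normalized counts in CtrlCre and 32, 32 and 38 in Cpt1bcKO. The genotypes did not overlap, and the log2 difference of 0.69 was nearly as large as that of Kif11, but at this level its SE was 0.29 (adjusted p = 0.289). Bub1b, encoding the checkpoint kinase BUBR1 (chromosome 2, 118597996 to 118598705), held 33, 33 and 48 against 52, 50 and 65, again without overlap (log2 difference 0.55, SE 0.23, adjusted p = 0.277). With Kif11, these were the 3 peaks of the 22 that separated the genotypes (13.6%, against 7.80% of all tested peaks).

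Mki67, whose protein Ki67 coats mitotic chromosomes and marks cycling cells, held 46, 58 and 63 normalized counts in CtrlCre and 55, 53 and 73 in Cpt1bcKO (chromosome 7, 135715715 to 135717127). Both genotypes covered nearly the same range, with a log2 difference of 0.11 (95% interval −0.30 to 0.53, adjusted p = 0.890). The peak over the promoter of Aurkb, the kinase of chromosome segregation and cytokinesis (chromosome 11, 69045339 to 69046269), held 47, 40 and 46 in CtrlCre and 40, 47 and 50 in Cpt1bcKO (log2 difference 0.04, 95% interval −0.41 to 0.49, adjusted p = 0.974). A broader peak assigned to Aurkb from outside any gene (chromosome 11, 69037031 to 69041796) held 288, 332 and 306 against 278, 298 and 280 (log2 difference −0.11, adjusted p = 0.711). Ccnb1, Ccnb2, Ccna2 and Plk1, which drive entry into mitosis, gave log2 differences of 0.13, 0.14, 0.21 and 0.06. Cdc20, the activator of the anaphase-promoting complex, and Racgap1, of the cytokinesis machinery, lay below 0 at −0.59 and −0.33, with SEs of 0.40 and 0.25.

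The balance of the mitotic groups towards higher values depended on Cpt1bcKO replicate 3. That library alone held the highest of the 6 values in 13 of the 22 peaks, and Cpt1bcKO replicates 1 and 2 did so in 2 and 1. Cpt1bcKO replicate 3 was the highest library in 17.8% of all tested peaks and in 33.2% of the 2004 tested peaks that had an assigned gene and a mean under 50, and 10 of the 22 mitotic peaks had a mean of at least 50. Its median log2 deviation from the mean of the 6 libraries was 0.31 over the mitotic cyclins and kinases and 0.27 over the spindle and cytokinesis genes. Cpt1bcKO replicate 1 lay at −0.08 and −0.06, and Cpt1bcKO replicate 2 at 0.01 and 0.11. Without Cpt1bcKO replicate 3, 12 of the 22 peaks were above 0 with a median of 0.04, and over all tested peaks 50.5% were above 0. The same library had the lowest sum of CM markers, 6642 against 8236 and 9353 in the other knockout libraries. Of these sums, Myh6 held 1544 against 2142 and 2446. The paper reported reduced H3K4me3 mainly at CM identity genes in Cpt1bcKO, so such a sum need not track the share of CM nuclei. In Cpt1bcKO replicate 3 the sum over the markers of other cells was 174, against 125 and 127 in the other knockout libraries and 144 to 207 in CtrlCre. By gene, Kcnj8 held 20, 20 and 45 in Cpt1bcKO replicates 1 to 3, and Kdr 31, 45 and 51. Pdgfra held 59, 56 and 63, and Myh11 15, 6 and 15. The part of these sums in the result was not tested. Kif11 and Ccnd1 stayed called without Cpt1bcKO replicate 3.

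**Figure D4:**
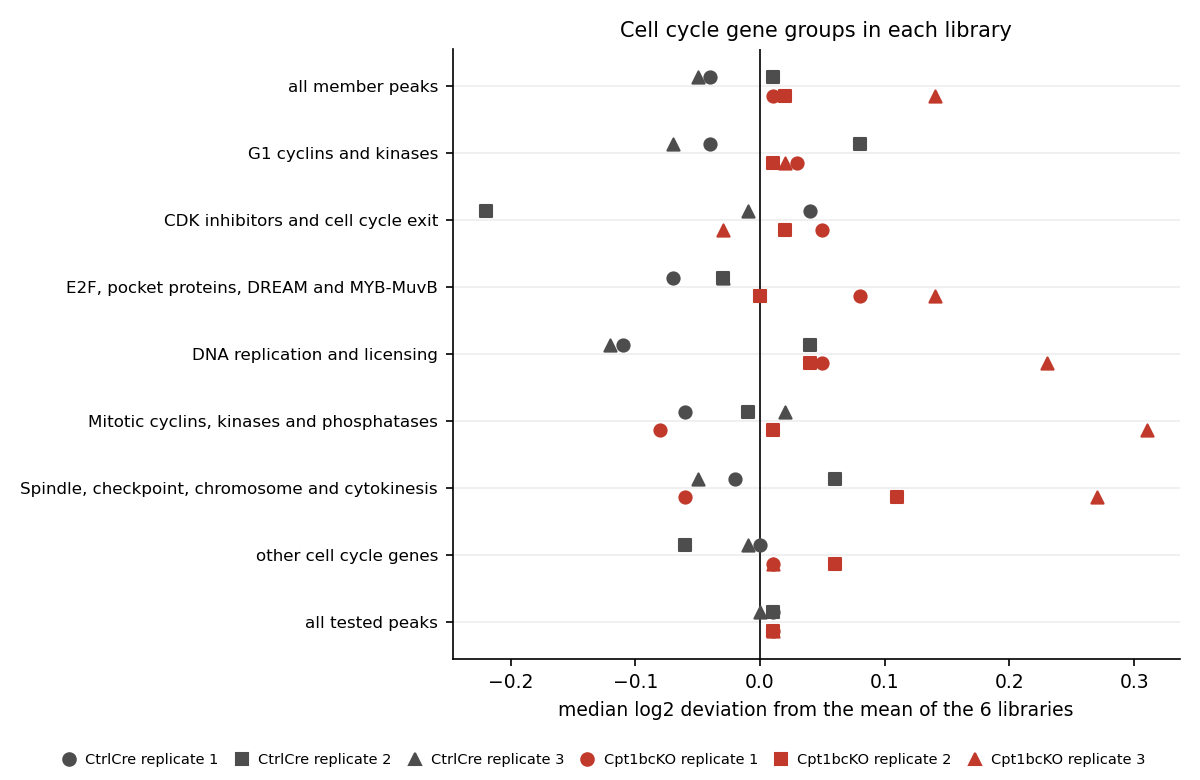
Median log2 deviation of each library from the mean of all 6, for all member peaks, 6 role groups, the other cell cycle genes and all tested peaks, with CtrlCre in grey and Cpt1bcKO in red and a symbol for each replicate. Cpt1bcKO replicate 3 stands apart in the mitotic cyclins and kinases (0.31), the spindle and cytokinesis genes (0.27) and the replication genes (0.23), and lies at 0.01 in the other cell cycle genes.

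The precision of a difference varied with the level. Of the 54 member peaks, 15 had a mean under 50, with a median SE of 0.27, and 39 had a mean of at least 50, with a median SE of 0.13. Both called peaks lay in the stronger class, in which the median log2 difference of the members was 0.06 and that of all 10617 tested peaks 0.02. In the weaker class the median was 0.16 for members, −0.07 for all 4422 peaks and −0.01 for the 2004 of them with an assigned gene, as every member has. Calls at an adjusted p of 0.05 were made in 2.28% of the weaker and 3.20% of the stronger peaks.

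**Figure D5:**
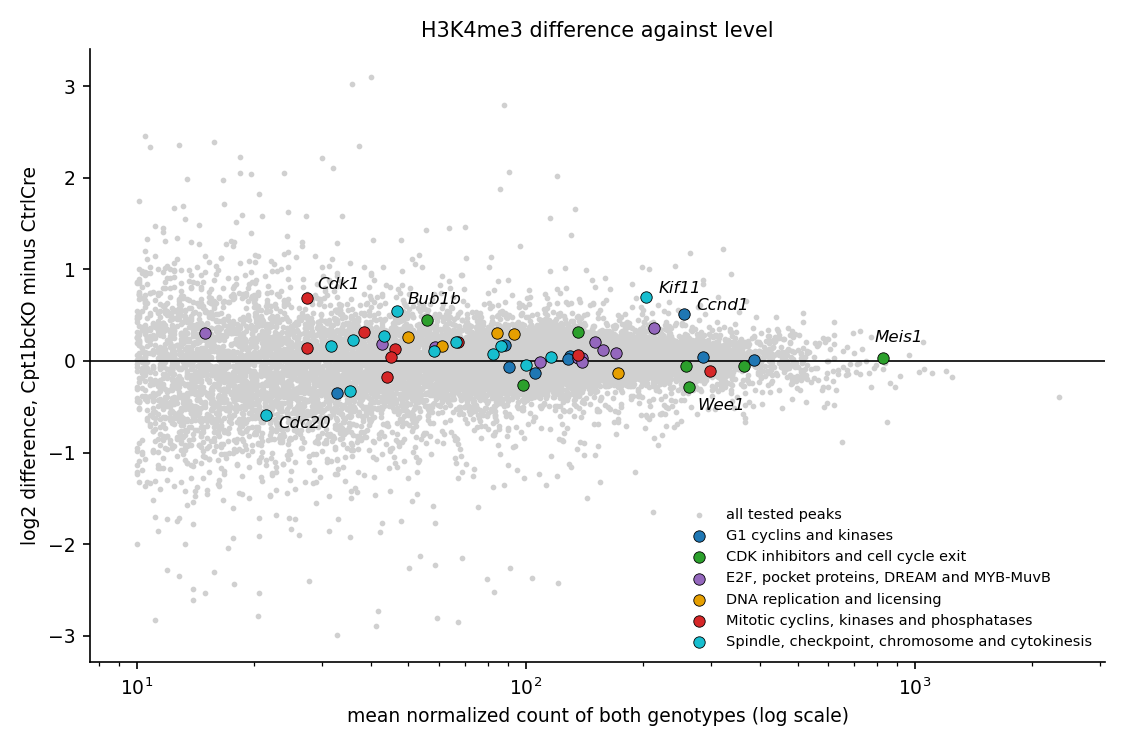
Log2 difference (Cpt1bcKO minus CtrlCre) against the mean normalized count of both genotypes (log scale) for all 15039 tested peaks (grey) and the 54 cell cycle peaks, coloured by role. Kif11 and Ccnd1 stand above most peaks of their level, while Cdk1, Bub1b and Cdc20 lie in the range where the spread of all peaks is wide.

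The 6 listed genes without a peak of their own name shared a promoter peak with a neighbouring gene to which the table assigned it. These were Mcm2 (assigned to Tpra1, log2 difference −0.06), Mcm4 (Prkdc, −0.03), Mcm7 (Ap4m1, 0.18), Pcna, the sliding clamp of DNA polymerases (Tmem230, 0.09), Aurka (Cstf1, −0.13) and Foxm1, the activator of mitotic genes (Rhno1, 0.16). None was called. Only the Mcm7 peak separated the genotypes, with 154, 137 and 157 normalized counts in CtrlCre and 176, 173 and 160 in Cpt1bcKO (adjusted p = 0.518). In such peaks the mark of the 2 genes cannot be told apart. The same holds for the peak of Cdk2, which also spans a start of Pmel, and that of Cdc25b, which spans one of Spef1.

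A wider list of further cell cycle genes gave 106 tested peaks of 105 genes. Of these, 1 was called higher (0.943%, against 1.11% of all tested peaks) and 0 lower (against 1.82%). It belonged to Cks2, a small subunit that binds CDKs, with 95, 77 and 96 normalized counts in CtrlCre and 106, 132 and 165 in Cpt1bcKO (log2 difference 0.57, SE 0.15, adjusted p = 0.0427), without overlap but with a wide spread among the knockout libraries. The call was lost when Cpt1bcKO replicate 2, Cpt1bcKO replicate 3, CtrlCre replicate 1 or CtrlCre replicate 3 was left out. At an unadjusted p under 0.05, 10 of the 106 peaks were higher (9.43%, against 5.84% of all tested peaks). Only 1, that of the checkpoint gene Bub3, was lower (0.943%, against 6.98%). The genotypes separated upwards in 15 peaks (14.2%, against 7.80%) and downwards in 0 (against 8.46%). The difference was above 0 in 68 peaks (64.2%, against 51.2%), with a median of 0.08. Without Cpt1bcKO replicate 3, 67 of the 106 were above 0, with a median of 0.07.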

How the data were processed

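H3K4me3 ChIP–seq was performed on sorted adult CM nuclei, with 3 CtrlCre and 3 Cpt1bcKO libraries. The authors trimmed reads with Trimmomatic 0.39, kept unique unspliced alignments to mm10 from STAR 2.6.1d, removed duplicates with Picard 2.21.7, called peaks per library against input with MUSIC, merged them, and assigned a gene with an annotated start within 5000 bases. The values that the authors deposited per library are counts per union peak, made with bigWigAverageOverBed, divided by DESeq2 1.26.0 size factors and rounded, recorded here as a score. The deposited genotype means are the same signal unrounded, used to recover whole counts, which had a single solution in each of 15848 peaks. Whether each such count is 1 read is not stated, which limits what counting errors mean. Size factors set the libraries to a like total, so a change of all peaks together would not show. The authors' fold changes and p-values in the table were not used.

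Values were tested as log2(value + 1) with limma 3.58.1 (lmFit and eBayes with trend) in R 4.3.3, over 15039 peaks with a mean of at least 10, two-sided, with genotype as the only term and Benjamini-Hochberg adjustment over all of them. Fold changes on this scale understate those of weak peaks. The same step was tested on simulated data. Peaks that are broad or narrow lie above the 75th or below the 25th percentile of the widths of tested peaks. Coordinates are as deposited, width is end minus start, and positions relative to genes come from the reference annotation of the same build. Intervals cover 95%. The text names member peaks with an unadjusted p under 0.05, Mki67, Aurkb, Ccne1, Meis1, Cdkn1a, Cdkn1b, Rb1, Ccnd1, Ccnd2 and Cdk1 whatever their p, the highest and lowest peak in CtrlCre, and other cell cycle genes with an adjusted p under 0.05. The members, lists and tests were chosen with earlier results of these data known. Same-numbered libraries did not deviate together (correlations of 0.076, −0.081 and 0.11), so replicate numbers were not treated as pairs. Alternatives were another pseudocount, other filters, quantile normalization, limma-voom on recovered counts, a replicate block, other assignments of peaks and each library left out in turn.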

Additional observations from a re-analysis of the deposited data

How the results depend on the processing

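Kif11 and Ccnd1 were called in every alternative run, and E2f3 was called only with a mean of at least 50 (adjusted p = 0.0460). The replicate block gave 2 called member peaks, and pairing by replicate number changed no call. With each library left out in turn, the called member peaks stayed at 2. The median log2 difference of members ran from 0.04 without Cpt1bcKO replicate 3 to 0.13. Member peaks below 0.05 before adjustment numbered 6 to 8, and those without overlap 12 to 14. Fewer libraries separate more often by construction. No share of all tested peaks is given for the runs in this section, so their counts are not set against a background. The called peaks of the other cell cycle list ranged from 0 to 1, and the Cpt1b difference from 0.43 to 0.57. The other list also gave 0 called peaks with limma-voom and with quantile normalization. With only peaks of a mean of at least 50 tested, 5 of 39 member peaks lay below 0.05 before adjustment. Differences near 0 changed sign with a library left out. Mki67 ranged from −0.03 (without Cpt1bcKO replicate 3) to 0.21 and lay at −0.02 without CtrlCre replicate 1, and the Cdkn1b promoter ranged from −0.14 to 0.00 (without CtrlCre replicate 1). Ccnd2 ranged from −0.04 (without Cpt1bcKO replicate 2) to 0.09, Rb1 from −0.03 (without Cpt1bcKO replicate 3) to 0.09, and the Aurkb promoter from −0.03 (without Cpt1bcKO replicate 3 or CtrlCre replicate 2) to 0.13. Meis1 ranged from −0.07 (without CtrlCre replicate 2) to 0.10 and lay at −0.02 without Cpt1bcKO replicate 2. The median SE of member differences was 0.27 below a mean of 50 and 0.13 from there on.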

Other observations

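The table held 3 tested peaks inside member genes that it assigned to no gene. One lies over a downstream alternative start of Ccnd3, cyclin D3 (chromosome 17, 47593032 to 47594832), and was stronger than the peak at the upstream start of that gene. It held 150, 144 and 143 normalized counts in CtrlCre and 150, 148 and 145 in Cpt1bcKO, so that both genotypes covered the same range (log2 difference 0.02, 95% interval −0.20 to 0.24, limma adjusted p = 0.974). A further peak in Ccnd3 (17, 19 and 20 against 18, 16 and 8) and 1 in Meis1 (21, 16 and 21 against 16, 16 and 6) were weak, with adjusted p-values of 0.722 and 0.569.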
